A study of Sus scrofa with 6 samples.

Results

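The 10 genes described here take up, carry, make, store or transport fatty acids and lipoproteins: FABP3, FABP4, FABP5, CD36, LPL, FASN, SCD, APOE, APOA1 and PLIN2. The 10 genes were listed by name, with earlier results of these data known. Every probe set of the Affymetrix porcine array that carries exactly 1 gene symbol, and whose symbol is in this list, was taken. A probe set is a group of short probes that together measure 1 transcript. The rule found 15 of the 23935 probe sets that are not controls, and they stand for 9 of the 10 genes. No probe set carries CD36 as its only symbol, so this gene is not analysed here. FASN had 4 probe sets, FABP5, LPL and APOE had 2 each, and the other genes had 1. The series holds 6765 genes by symbol.

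Each of the 6 arrays held the RNA of ovarian follicles of 1 sow, from 3 Large White sows and 3 Chinese Erhualian sows, which the study calls by the name of the wider group, Chinese Taihu, used here. All 6 were cyclic sows that had farrowed at least 2 litters, and their age is not given in the sources used here. Every sow received 1000 IU PMSG, a gonadotropin with FSH activity that drives follicle growth, and 80 h later 500 IU hCG, which stands in for the LH surge. Slaughter followed hCG by 30 to 38 h, when follicles over 5 mm were dissected whole. There was no untreated group. Each breed was kept on a farm of its own, so breed and farm cannot be told apart. Whole follicles contain granulosa, theca, vessel and immune cells, and in such bulk samples fewer cells of a type and less RNA per cell cannot be told apart.

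Long-chain fatty acids reach a cell bound to albumin or packed as triglyceride in lipoproteins. Lipoprotein lipase frees them from the triglyceride, membrane carriers such as CD36 take them in, and fatty acid binding proteins carry them through the cytosol. Inside the cell they are burned in mitochondria, lengthened and desaturated, or stored as triglyceride and cholesteryl ester in droplets coated with perilipins. Apolipoproteins hold lipoproteins together and bind their receptors. In the ovary, lipoproteins bring the cholesterol from which luteinizing cells make progesterone, droplets hold it in store, and macrophages move into the follicle around ovulation.

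The values are the authors' normalized signal intensities on a linear scale. A signal above 50 on 3 or more arrays was required for testing, and 19196 probe sets, all 15 of the present ones among them, met this. The breeds were compared with limma on the log2 scale, and log2 differences were taken as the Chinese Taihu minus the Large White mean. Adjusted p-values follow Benjamini and Hochberg over all 19196. Signals of a gene are compared between arrays for 1 probe set, not between probe sets. Summed signals of a marker list add several probe sets, so the brightest ones weigh most in them. Some arrays stood apart by their marker lists. Large White sow 2 had the highest signal of all 9 leukocyte markers on the array. Chinese Taihu sow 1 had the highest signal of all 10 epithelium markers, with a list median 4.28 above the genes' own medians on the log2 scale, and a list median of -3.19 for theca and steroid synthesis markers and -1.07 for granulosa markers. Large White sow 3 came next for epithelium markers, with a list median of 1.32, and the remaining sows lay at -0.26 to -0.034. Large White sow 1 and Chinese Taihu sow 2 had list medians of 2.22 and 2.20 for cholesterol synthesis genes.

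FABP3, FABP4 and FABP5 encode the heart, adipocyte and epidermal fatty acid binding proteins, small carriers that shuttle fatty acids between membranes, droplets, mitochondria and the nucleus. The 3 did not share 1 pattern over the sows. FABP3 was high in 1 sow of each breed, while FABP4 and FABP5 were high in a single Large White sow. FABP4 and FABP5 lie close together on chromosome 4 of the pig, with PMP2, another carrier of this family, between them in the RefSeq table of Sscrofa11.1. FABP3 lies on chromosome 6.

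FABP3 had normalized signals of 10874, 605 and 636 in Large White sows 1 to 3, against 74.0, 6662 and 408 in Chinese Taihu sows 1 to 3. Large White sow 1 and Chinese Taihu sow 2 thus stood above the other 4, and the breeds overlapped. The highest signal was 147 times the lowest, a log2 range of 7.20 over the 6 arrays, and 0.0625% of the tested probe sets had a range at least as large. Large White sows had a mean of 4039 ± 5920 (SD, n = 3), and Chinese Taihu sows one of 2381 ± 3711. The log2 difference was -1.46 (SE 1.86, 95% interval -5.95 to 3.03, adjusted p = 0.993 by limma). Without Chinese Taihu sow 1 it was 0.033, and without Large White sow 1 it was -0.083.

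FABP4 had 214, 4288 and 240 in Large White sows, against 131, 45.5 and 291 in Chinese Taihu sows. Large White sow 2 had 14.7 times the signal of the next highest sow, and the other Large White sows lay within the range of the Chinese Taihu sows. Chinese Taihu sow 2 lay below 50. The log2 range, which rests on that low signal, was 6.56, and 0.130% of the tested probe sets reached it. The means were 1581 ± 2345 (SD, n = 3) and 156 ± 125, with a log2 difference of -2.33 (SE 1.29, 95% interval -5.43 to 0.77, adjusted p = 0.993 by limma), the largest of the 15 probe sets in size. Without Large White sow 2 it was -0.92.

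FABP5 had 1204, 6490 and 1552 in Large White sows, against 1253, 974 and 1233 in Chinese Taihu sows on its brighter probe set. Its other probe set had 591, 3159 and 831, and 642, 443 and 622. On each of them Large White sow 2 was highest, by 4.18 and 3.80 times over the next sow, and the other 5 sows lay close together. The log2 differences were -1.0 (SE 0.62, 95% interval -2.51 to 0.50) and -1.04 (SE 0.62, 95% interval -2.54 to 0.46), each with an adjusted p of 0.993 by limma. They were -0.25 and -0.32 without Large White sow 2. The 2 probe sets followed each other over the arrays, with a root mean square difference of 0.0720 between their log2 signals after each was centred on its mean.

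**Figure D1:**
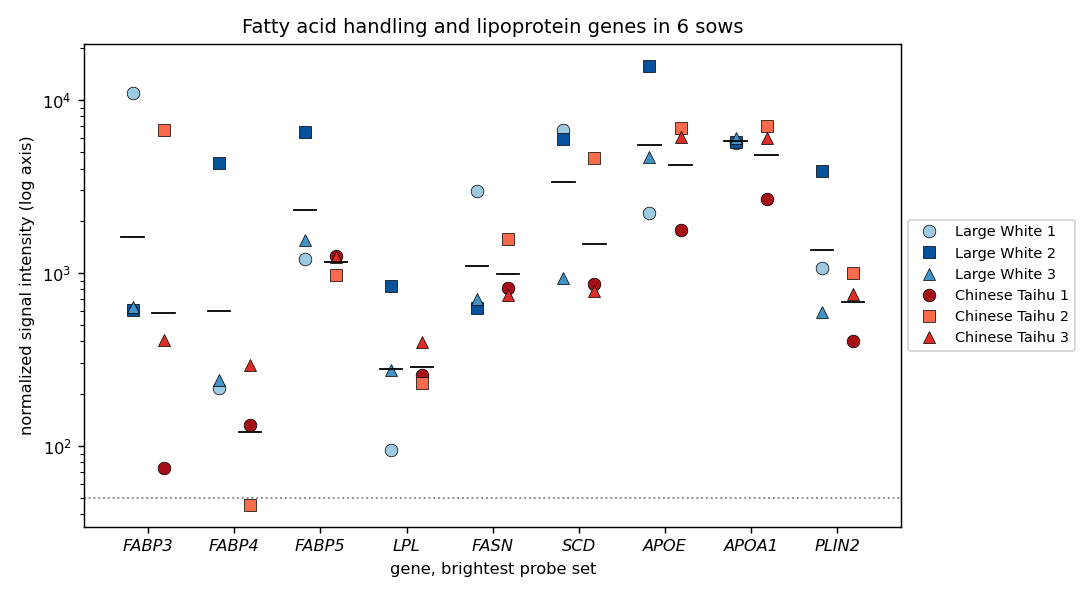
Normalized signal intensity (log axis) of the brightest probe set of each of the 9 genes measured, with 1 point per sow, Large White in blue and Chinese Taihu in red. Horizontal lines are the geometric means of 3 sows, and the dotted line marks a signal of 50. FABP4, FABP5, LPL, APOE and PLIN2 are highest in Large White sow 2, and FABP3 and FASN in Large White sow 1 and then Chinese Taihu sow 2.

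LPL, APOE and APOA1 act on lipoproteins outside the cell. LPL is the lipase that cleaves triglyceride in lipoproteins at the vessel wall and is also made by macrophages. APOE binds lipoprotein remnants to LDL family receptors and is made in quantity by liver and macrophages, and APOA1 is the main protein of HDL, made mostly by liver and gut. LPL and APOE were highest in Large White sow 2, and APOA1 differed little among 5 of the 6 sows.

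LPL had signals of 94.5, 836 and 273 in Large White sows, against 255, 230 and 399 in Chinese Taihu sows on its brighter probe set, and 92.3, 477 and 170, and 238, 174 and 320, on the other. The highest and the lowest sow were both Large White, sow 2 and sow 1. The 3 Chinese Taihu sows lay between them. The log2 differences were 0.039 (SE 0.76, 95% interval -1.79 to 1.87, adjusted p = 1.0 by limma) and 0.27 (SE 0.60, 95% interval -1.17 to 1.72, adjusted p = 0.993). They were 0.83 and 0.92 without Large White sow 2, and without Large White sow 1 they were -0.74 and -0.27. These were the only 2 of the 15 probe sets with a positive difference, and array weights turned their sign.

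APOE had 2199, 15671 and 4664 in Large White sows, against 1759, 6841 and 6046 in Chinese Taihu sows. On its dimmer probe set it had 218, 1074 and 350, and 190, 563 and 441. Large White sow 2 was highest on each, with 2.29 and 1.91 times the signal of Chinese Taihu sow 2, the next in order. Large White sow 1 and Chinese Taihu sow 1 were the 2 lowest. The log2 differences were -0.38 (SE 0.83, 95% interval -2.38 to 1.61) and -0.27 (SE 0.68, 95% interval -1.90 to 1.37), with adjusted p-values of 0.993 and 0.994 by limma. They were 0.38 and 0.39 without Large White sow 2, and without Chinese Taihu sow 1 they were 0.24 and 0.20, so the sign rested on 1 sow of either breed.

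APOA1 had 5652, 5674 and 5998 in Large White sows, against 2656, 7004 and 5975 in Chinese Taihu sows. Chinese Taihu sow 1 was the lowest, and the other 5 sows lay within 1.24-fold of each other. The means were 5775 ± 194 (SD, n = 3) and 5212 ± 2272. The log2 difference of -0.26 (SE 0.36, 95% interval -1.13 to 0.60, adjusted p = 0.993 by limma) became 0.16 without Chinese Taihu sow 1. In that sow theca and granulosa marker lists were low as well and epithelium markers were at their highest (values above), and their part in the result was not tested.

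FASN and SCD make fatty acids. FASN builds palmitate from acetyl and malonyl units, and SCD puts the double bond into palmitate and stearate that turns them into palmitoleate and oleate, the form in which cells store most triglyceride and cholesteryl ester. The brightest FASN probe set and SCD were high in Large White sow 1 and Chinese Taihu sow 2, and SCD was also high in Large White sow 2.

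FASN had 2953, 628 and 708 in Large White sows, against 815, 1567 and 741 in Chinese Taihu sows on that probe set. Large White sow 1 was first and Chinese Taihu sow 2 second, and the breeds overlapped. The probe sets of the gene disagreed in how far they moved. The second brightest had 407, 224 and 223, and 170, 278 and 292, with the same sow first but Chinese Taihu sow 3 second. The third lay at 203 to 327 and the fourth at 49.4 to 62.1, close to the limit of 50, with log2 ranges of 0.69 and 0.33 against 2.23 on the brightest. Over all 19196 probe sets the median range was 0.81. The 4 log2 differences between the breeds ran from -0.19 to -0.12, each with an adjusted p of 0.993 or above by limma. The brightest gave -0.16 (SE 0.65, 95% interval -1.72 to 1.41), and 0.56 without Large White sow 1. Its sign also turned with array weights (0.16).

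SCD had 6657, 5963 and 930 in Large White sows, against 857, 4600 and 787 in Chinese Taihu sows. The sows fell into 3 high signals and 3 low ones that were at least 4.95-fold apart, with 2 of the high ones in Large White. The means were 4517 ± 3125 (SD, n = 3) and 2081 ± 2181, and the log2 difference was -1.19 (SE 0.99, 95% interval -3.58 to 1.20, adjusted p = 0.993 by limma). Leaving out Large White sow 1 made it -0.69, and leaving out Large White sow 3 made it -2.11. It was -0.75 without Chinese Taihu sow 3, -0.77 without Large White sow 2 and -2.02 without Chinese Taihu sow 2. The unadjusted p without Large White sow 3 was 0.0492 and the adjusted p 0.932 by limma.

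PLIN2, also called adipophilin or ADRP, coats the lipid droplets of cells other than adipocytes and is a usual mark of lipid loading in macrophages and steroid-making cells. It had 1062, 3867 and 593 in Large White sows, against 404, 999 and 755 in Chinese Taihu sows. Large White sow 2 had 3.64 times the signal of the next sow, Large White sow 1, and Chinese Taihu sow 1 was the lowest. The means were 1840 ± 1770 (SD, n = 3) and 720 ± 299, with a log2 difference of -1.0 (SE 0.72, 95% interval -2.74 to 0.74, adjusted p = 0.993 by limma). Without Large White sow 2 it was -0.24. It was -1.59 without Large White sow 3 and -0.63 without Chinese Taihu sow 1. Without sow 2 of Large White and Chinese Taihu sow 1, an alternative chosen after the data were seen, it was 0.13.

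Between the breeds, 0 of the 15 probe sets passed an adjusted p below 0.05 by limma, against 0.0208% of all tested probe sets. At an unadjusted p of at most 0.05 it was also 0 of 15, against 3.86%, and the methods' t-test on the same values gave 0 as well. In 0 of 15 did the arrays of the breeds not overlap, against 9.10% of all probe sets. The median log2 difference was -0.27 over the 15 and 0.0019 over all 19196. Of the 15, 13 had a negative difference, against 9547 of the 19196. The median was -0.017 without Chinese Taihu sow 1 and -0.72 with array weights. These 15 differences share the same 6 sows and are not independent. The intervals show what 3 sows per breed leave undecided. The narrowest, that of the dim FASN probe set, ran from -0.47 to 0.24, and that of FABP3 spanned differences from -5.95 to 3.03. With 3 sows per breed the smallest p of an exact permutation test is 0.1, and for the 15 probe sets it gave 0.2 (SCD) to 1, 2-sided. With 1 sow left out, FABP5 reached an unadjusted p of 0.0487 without Large White sow 1 on its second probe set (adjusted p = 0.998 by limma), beside SCD above.

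**Figure D2:**
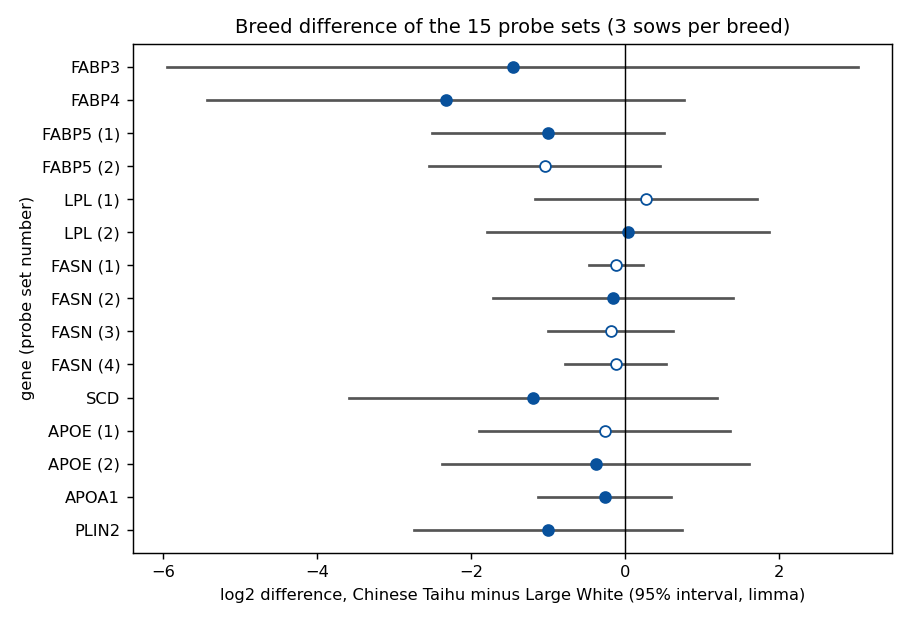
Log2 difference between the breeds (x axis, Chinese Taihu minus Large White) for each of the 15 probe sets (y axis), with 95% intervals from limma over 3 sows per breed. Filled points are the brightest probe set of a gene and open points the others. All 15 intervals include 0, and the widest belong to FABP3 and FABP4.

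The spread among sows was wide in this set. The median log2 range over the 6 arrays was 2.74 for the 15 probe sets and 0.81 for all tested probe sets. Grouped by the sow that was highest, 5 genes shared Large White sow 2. Patterns by sow were read from the values and carry no test.

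In Large White sow 2, 8 of the 15 probe sets had their highest signal, against 14.7% of all tested probe sets. They belong to FABP4, FABP5, LPL, APOE and PLIN2. In 6 of the 15 this sow had at least 2 times the signal of the next, against 1.07% of all probe sets. The 9 leukocyte markers were all highest in the same sow. AIF1, a cytoskeletal protein of macrophages, had 1886 there and 259 to 511 in the other 5 sows, and CD53, a tetraspanin of leukocytes, had 3318 and 347 to 1172. The summed signal of the 9 markers was 3957 to 23659 over the Large White sows and 4409 to 8060 over the Chinese Taihu sows, and none was at or below 50 on any array. Between the breeds the mean log2 signal of this list differed by -0.39 (exact permutation p = 0.9, 2-sided), and by 0.34 without Large White sow 2. The part of these cells in the 5 genes was not tested. CD163, a scavenger receptor of macrophages, was 1875 in this sow but also 1492 in Chinese Taihu sow 3. In that sow LPL was the second highest at 399 and FABP4 the second highest at 291. FABP5 was 1233 there, in the midst of the other sows.

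Adipocyte and endothelial markers were read beside FABP4, which both cell types make. ADIPOQ, the adipocyte hormone adiponectin, lay at 32.0 to 47.4 and thus below 50 in all 6 sows, and LEP, leptin, at 83.5 to 99.8. The sum over the 6 adipocyte markers ran from 1103 to 2383 over Large White sows, against 1205 to 6685 over Chinese Taihu sows, the highest from CFD, a complement protease, in Chinese Taihu sow 1. The 10 endothelial markers summed to 5493 to 6597 and 5871 to 6426. Of the 10, 2 were highest in Large White sow 2. PECAM1, an adhesion protein of vessel walls, was 1 of them, with 1775 there and 1171 to 1637 in the other sows. Others went the opposite way: KDR was lowest in that sow (68.7 against 72.0 to 116), as was FLT1 (182 against 186 to 266). The part of these cells in the FABP4 signal was not tested.

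In Large White sow 1 and Chinese Taihu sow 2, 3 of the 15 probe sets had their 2 highest signals, a share of the 15 near the 15.6% of all tested probe sets. They were FABP3 and 2 of the FASN probe sets, the dimmest of which spanned a log2 range of only 0.33. FABP3 was the 1 of the 15 in which both sows had at least 2 times the signal of each other sow, a pattern found in 0.792% of all probe sets. The 6 cholesterol synthesis genes on the array were all highest in 1 of these sows, with sums of 21211 and 21210 against 3567 to 4314 in the other 4. Between the breeds the mean log2 signal of this list differed by -0.061 (exact permutation p = 0.8, 2-sided). Theca and steroid synthesis markers summed to 52486 and 57243 in these sows, to 2786 in Chinese Taihu sow 1 and to between 11896 and 16857 elsewhere. The share of these lists in FABP3, FASN and SCD was not tested. SCD was highest in the same sows together with Large White sow 2, where cholesterol synthesis genes summed to 4192.

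Chinese Taihu sow 1 had the lowest signal of 6 of the 15 probe sets, against 23.1% of all, in FABP3, APOE, APOA1, PLIN2 and 1 of the FASN probe sets. FABP4 and FABP5 were lowest in Chinese Taihu sow 2 instead.

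**Figure D3:**
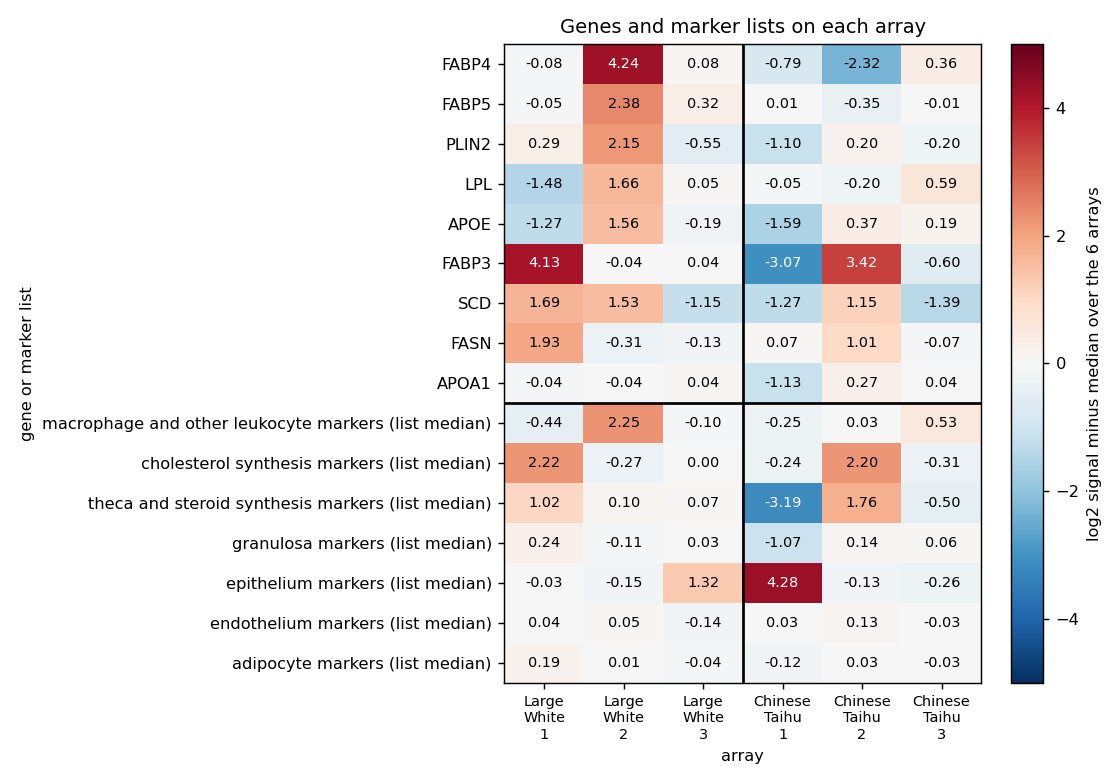
Log2 signal minus the median over the 6 arrays (colour and printed number) for the brightest probe set of 9 genes (upper rows) and as list medians for 7 marker lists (lower rows), with 1 column per sow. Large White sow 2 is high for FABP4 (4.24), FABP5, PLIN2, LPL, APOE and leukocyte markers (2.25), while Large White sow 1 and Chinese Taihu sow 2 are high for FABP3 (4.13 and 3.42), FASN and cholesterol synthesis genes.

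Compared pair by pair over the 6 arrays, the 9 genes gave 36 root mean square differences of centred log2 signals. The most alike were FABP5 and PLIN2 (0.60), then FABP5 and LPL (0.65) and LPL and APOE (0.66). The least alike were FABP3 and FABP4 (3.52), and the median pair was at 1.42. Among the 6311 other genes, the 2 most alike to each were taken by the same measure, as a description with 6 points each. FABP3 was nearest to SCARB1, the HDL receptor (0.67), and LRP8, a receptor of the LDL family (0.84). FASN was nearest to MMAB, a cobalamin enzyme (0.16), and SLC25A1, which exports citrate from mitochondria (0.21), and SCD to CAPG, an actin capping protein (0.56), and LPCAT3, which puts polyunsaturated fatty acids into phospholipids (0.58). PLIN2 was nearest to SPI1, a transcription factor of myeloid cells (0.21), and CTSD, a lysosomal protease (0.21). FABP5 was nearest to IL2RG, a cytokine receptor chain (0.17), and BIN2 (0.22), and LPL to P2RY12, a purine receptor of platelets and microglia (0.22), and CD53 (0.28). APOE was nearest to STX11, a syntaxin of immune cells (0.41), and GP91-PHOX, the phagocyte oxidase (0.43), FABP4 to CXCL14, a chemokine (0.81), and SDCBP2 (0.83), and APOA1 to GJA1, the gap junction protein connexin 43 (0.0626), and NOP10 (0.0777). GJA1 and NOP10, like APOA1, were lowest in Chinese Taihu sow 1.

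The other genes of these pathways were taken from 8 lists with 172 genes in all, of which 119 were on the array and 109 were tested by their brightest probe set. At an adjusted p below 0.05 it was 0 of 109 by limma. In Chinese Taihu sows 2 were higher and 4 lower with an unadjusted p up to 0.05. Of all tested probe sets 1.56% were higher and 2.30% lower at this p. The median log2 difference was -0.054, against 0.0019 over all. The count of 6 moved with single sows, as did the share of all probe sets at this p. It was 2 without Large White sow 2, where 1.94% of all probe sets passed, and 10 without Chinese Taihu sow 2, where 6.38% passed, against 3.86% with all 6 sows. It was 3 without Large White sow 3 (4.78% of all) or Chinese Taihu sow 1 (3.66%), and 3 by the methods' t-test (4.41%).

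In the list of uptake, binding and activation, 0 of 13 tested genes passed an unadjusted p of 0.05 (median -0.28). The smallest p belonged to ACOT7, which cleaves acyl-CoA, with 1649, 562 and 267 in Large White, against 53.7, 706 and 112 in Chinese Taihu sows (log2 difference -1.96 with SE 1.08, adjusted p = 0.993 by limma), highest in Large White sow 1. The difference was -1.16 without Chinese Taihu sow 1, -1.26 without Large White sow 1 and -3.02 without Chinese Taihu sow 2. FABP1, FABP2 and FABP7, the liver, gut and brain carriers, lay below 50 on every array. DBI, which carries acyl-CoA, was 6162 and 6853 in Large White sow 1 and Chinese Taihu sow 2, against 3130 to 4136 elsewhere. DBI was chosen after its values were seen.

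In the synthesis, elongation and desaturation list, 0 of 11 passed (median -0.13). ELOVL1, which lengthens long fatty acids, had the smallest p, with 2382, 1491 and 1434 in Large White, against 975, 1735 and 696 in Chinese Taihu sows (log2 difference -0.70 with SE 0.39, adjusted p = 0.993 by limma), which was -0.40 without Chinese Taihu sow 3 and -1.06 without Chinese Taihu sow 2, and -0.47 without Large White sow 1. ELOVL6, which lengthens palmitate, and FADS1, the delta-5 desaturase, were chosen after their values were seen. ELOVL6 was 1194 and 784 in Large White sow 1 and Chinese Taihu sow 2, against 87.0 to 240 elsewhere, and FADS1 was 902 and 564 against 169 to 300. SREBF2, the transcription factor of sterol genes, chosen in the same way, was 3153 and 2666 against 1292 to 1480. The probe set of SREBF1, its relative for fatty acid genes, lay at 63.1 to 85.1 on all arrays. The synthesis, elongation and desaturation list did not move as a whole with ELOVL6 and FADS1. Of its 12 genes on the array, Large White sow 1 had the highest signal of 5 and Chinese Taihu sow 2 that of 3. The other 4, ACACA, HACD3, FADS2 and SCD5, peaked in Chinese Taihu sow 1. SCD5 reached 1874 there and was lowest, at 235, in sow 2 of that breed. ACACA spanned only 76.9 to 109.

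In the list of triglyceride synthesis and lipid droplets, 3 of 17 passed the same p, 1 of them higher and 2 lower in the Chinese Taihu breed. The share of all tested probe sets at this p was 3.86%, with 1.56% higher and 2.30% lower. HILPDA, a droplet protein that is made under hypoxia and inhibits lipolysis, had 887, 966 and 738 in Large White, against 317, 516 and 573 in Chinese Taihu sows. The breeds did not overlap (log2 difference -0.92 with SE 0.28, unadjusted p = 0.0154, adjusted p = 0.993 by limma), and the other HILPDA probe set gave -0.70 (unadjusted p = 0.00795, adjusted p = 0.993). AGPAT4, an acyltransferase of phosphatidic acid synthesis, had 864, 966 and 645, and 515, 594 and 497, again without overlap (log2 difference -0.61 with SE 0.22, adjusted p = 0.993). The breeds did not overlap in 9.10% of all tested probe sets. The AGPAT4 difference was -0.48 without Large White sow 2 (unadjusted p = 0.112 by limma). LPIN1, the phosphatidic acid phosphatase lipin 1, had 497, 379 and 309, and 615, 630 and 548 (log2 difference 0.62 with SE 0.23, adjusted p = 0.993). Without Large White sow 3 it was 0.46 (unadjusted p = 0.105 by limma). The other LPIN1 probe set pointed the opposite way, with 440, 150 and 128 in Large White, against 83.9, 35.4 and 22.4 in Chinese Taihu sows, a log2 difference of -2.33 (unadjusted p = 0.00955, adjusted p = 0.993).

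In the list of lipases 0 of 8 passed (median 0.00079). PNPLA2, the triglyceride lipase of lipid droplets, had the smallest p, with 2221, 2287 and 1937 in Large White, against 1832, 2001 and 1515 in Chinese Taihu sows (log2 difference -0.27 with SE 0.18, adjusted p = 0.993 by limma), and -0.16 without Chinese Taihu sow 3. The other PNPLA2 probe set, at 62.6 to 77.7, gave a log2 difference of 0.0059. LIPA, the acid lipase of lysosomes, chosen after its values were seen, was 8129 in Large White sow 2 and 2384 to 6039 in the others. GPIHBP1, which holds LPL at the vessel wall, lay at 54.2 to 66.2. ANGPTL4, which inhibits LPL and was chosen after its values were seen, was 3565 and 2791 in Large White sow 1 and Chinese Taihu sow 2, against 106 to 1374 elsewhere. On its brighter probe set LPL was lowest in the first of these, at 94.5, and 230 in the second. Large White sow 2, the highest for LPL at 836, had 1374 for ANGPTL4. Chinese Taihu sow 1, the lowest for ANGPTL4, had 255 for LPL. A link between these 2 transcripts was not tested.

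Among apolipoproteins and lipid transfer proteins 1 of 11 passed, against 3.86% of all tested probe sets, with a list median of 0.022. The gene was ABCA1, the pump that loads cholesterol and phospholipid onto APOA1. ABCA1 had 265, 1371 and 631 in Large White sows, against 65.9, 197 and 151 in Chinese Taihu sows, without overlap. Of all tested probe sets 9.10% had no overlap. The log2 difference of ABCA1 was -2.29 (SE 0.68, unadjusted p = 0.0134, adjusted p = 0.993 by limma). Without Large White sow 2 it was -1.71 (adjusted p = 1.0 by limma), and the methods' t-test gave an unadjusted p of 0.0513. NR1H3, the liver X receptor alpha, a sterol sensor that is known to act on the ABCA1 and APOE genes, was chosen after its values were seen. It had 2311 in Large White sow 2 and 577 to 659 in the others, where ABCA1 ran from 65.9 to 631. Of the 16 transcription factors on the array, 3 were highest in Large White sow 2. PPARG, another of them, had 309 there and was highest, at 496, in Chinese Taihu sow 3. The part of these factors in the listed genes was not tested. APOB, APOC2 and APOC3, apolipoproteins of liver and gut, lay below 50 on every array.

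In the receptor list 0 of 6 passed (median -0.30), with LRP2, the endocytic receptor megalin, at the smallest p (155, 141 and 137 in Large White, against 247, 148 and 156 in Chinese Taihu sows, difference 0.31 with SE 0.23, adjusted p = 0.993 by limma). Without Chinese Taihu sow 1 the LRP2 difference was 0.076. The other LRP2 probe set had 102, 80.4 and 92.2 in Large White, against 280, 36.7 and 47.8 in Chinese Taihu sows. It pointed the opposite way, with a log2 difference of -0.21 (adjusted p = 0.998 by limma). In the list of fatty acid oxidation, 2 of 28 passed, 1 in each direction (median -0.064), against 3.86% of all tested probe sets. HADH, the hydroxyacyl-CoA dehydrogenase of mitochondria, had 3341, 10486 and 7707, and 3736, 2989 and 2775 (log2 difference -1.04 with SE 0.42, adjusted p = 0.993), and the breeds overlapped. The HADH difference was -0.69 without Large White sow 2 (unadjusted p = 0.131 by limma). ACOX3, a peroxisomal oxidase of branched fatty acids, had 820, 720 and 488, and 1258, 861 and 1112 (log2 difference 0.69 with SE 0.27, adjusted p = 0.993). Its breeds did not overlap, as in 9.10% of all tested probe sets. The ACOX3 difference was 0.47 without Large White sow 3 (unadjusted p = 0.127 by limma), and the methods' t-test gave an unadjusted p of 0.0679. The other ACOX3 probe set gave 0.44 (unadjusted p = 0.0671 by limma). Of these 28 genes, 15 were highest in Chinese Taihu sow 2, against 15.6% of all tested probe sets. Among the transcription factors 0 of 15 passed (median -0.038), and INSIG2, which holds sterol sensors in the endoplasmic reticulum, had the smallest p (log2 difference 0.42 with SE 0.33, adjusted p = 0.993). The INSIG2 difference was 0.13 without Large White sow 1, 0.22 without Chinese Taihu sow 1 and 0.68 without Large White sow 3.

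**Figure D4:**
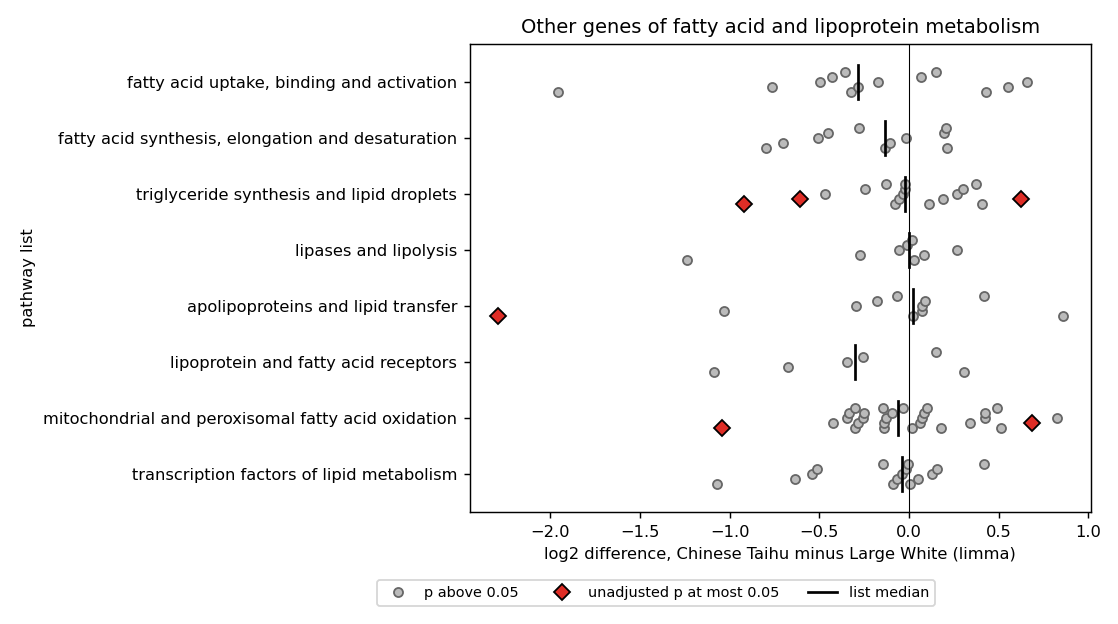
Log2 difference between the breeds (x axis, Chinese Taihu minus Large White, limma over 3 sows per breed) for the tested genes of 8 pathway lists (y axis, 1 point per gene, shifted up or down for visibility). Red diamonds are the genes at an unadjusted p of at most 0.05 and black lines the list medians, and ABCA1 (-2.29) lies farthest to the left.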

How the data were processed

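Follicle RNA of 6 sows was measured on 1 Affymetrix porcine array each. The authors made the deposited signal intensities with MAS5 (2.3.1 in the submitters' processing notes), scaled to 500, and dChip invariant set normalization. The scale is linear. Precision is limited by having 6 arrays.

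Of 24123 probe sets, 188 controls were not used. Signals below 1 were raised to 1 and taken to log2. Breed was tested on 19196 probe sets by limma 3.58.1 in R 4.3.3 (moderated variance with a trend, 2-sided), in place of the methods' t-test. The procedure was tested on simulated data. Symbols come from the platform's probe table (10099 probe sets with 1 symbol, 198 with several, 13826 with none), and the symbol of all 15 probe sets equals that of RefSeq for the same gene ID. The brightest probe set stood for a gene in the lists. The members and lists were chosen with earlier results of these data known. From each pathway list, genes at an unadjusted p of at most 0.05 are named, or the gene with the smallest p. The marker lists for red blood cells, smooth muscle and fibroblasts gave differences of mean log2 signals of 0.63, -0.059 and 0.024 (exact permutation p = 0.1, 0.9 and 1). The values for epithelium were 0.76 (p = 0.9), for granulosa -0.43 (p = 0.6), for theca -1.10 (p = 0.7), for adipocytes 0.059 (p = 0.9) and for endothelium 0.024 (p = 0.9), by the same exact test. Alternatives were other normalizations, filters, offsets and variance models, the methods' t-test, a replicate block and each array left out. Python 3.11.15, pandas 2.3.3, numpy 2.4.6 and matplotlib 3.10.9 were used otherwise.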

Additional observations from a re-analysis of the deposited data

How the results depend on the processing

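The count of 0 of 15 probe sets at an adjusted p below 0.05 was found under every alternative run, and the smallest adjusted p of any of them was 0.708. At an unadjusted p of at most 0.05 the count was 0 to 1 with an array left out and 0 otherwise. For the 109 pathway genes the count of 6 was 3 by the methods' t-test, 2 to 10 with an array left out (2 without Large White sow 2 and Chinese Taihu sow 1 together, chosen after seeing the data), and 5 to 9 under the other alternatives. The share of all probe sets at this p moved too, from 1.94% to 6.38% with 1 array left out, to 2.22% with both out and to 6.79% with array weights, where the count was 9. With array weights the log2 difference turned to 0.16 and 0.071 for FASN and to -0.55 and -0.18 for LPL, and log2(signal + 50) gave -0.036 for LPL. The cause was not tested. With arrays left out, the log2 differences ran from -0.54 to 0.16 for APOA1, from -1.03 to 1.01 and -0.76 to 0.85 for APOE, from -3.21 to 0.033 for FABP3, from -0.56 to 0.56, -0.33 to 0.10 and -0.35 to 0.10 for FASN, from -0.74 to 0.91 and -0.27 to 0.92 for LPL, and from -1.59 to 0.13 for PLIN2. Without Large White sow 2 the values were 0.38 and 0.39 for APOE and 0.83 for the brighter LPL probe set, and without that sow and Chinese Taihu sow 1 APOA1 was at 0.15. FABP4 (-3.08 to -0.92), FABP5, SCD (-2.11 to -0.39) and the dim FASN probe set kept their sign. The difference of mean log2 signals ran with single arrays left out from -0.83 to 0.34 for leukocyte markers and from -0.93 to 0.68 for cholesterol synthesis genes. Deviations of same-numbered arrays from their breed means had correlations of -0.17, -0.14 and 0.27 over 19196 probe sets. Large White sow 1 went best with Chinese Taihu sow 2 (0.51), and Large White sow 3 with Chinese Taihu sow 3 (0.27). Differences among sows also enter these correlations, so they cannot decide whether the number pairs sows. The replicate block gave 0 of 15 at either p and 6 of 109, and left the log2 differences as they were; over all probe sets adjusted calls went from 4 to 0.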
